A study of Mus musculus with 6 samples.

Results

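The 31 astrocyte genes described here are markers and functional genes of the astrocyte, the glial cell that surrounds synapses and blood vessels. These genes were chosen with earlier results of these data known. They were taken by symbol from the table of normalized counts, where each gene identifier was matched to GENCODE mouse release M21, and all 31 were found among the 17889 genes of the table. All 31 reached the limit for testing, a mean of 10 over the 6 samples, as did 14969 genes in all. Prefrontal cortex was taken from mice of the strain C57BL/6J, aged 28 days after birth, in 3 wild-type samples (WT) and 3 samples whose titles say Hetero and whose genotype is given as Cyfip2 mutant. The labels do not give the type of mutation or the allele, and name neither pooling nor the animal behind each sample, so the spread that the p-values rest on may be technical. Both groups share strain, tissue and age, and no treatment is named.

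Astrocytes clear glutamate from the synaptic space with the transporters encoded by Slc1a2 and Slc1a3, convert it to glutamine with glutamine synthetase (Glul), and pass ions and metabolites between cells through connexin gap junctions (Gja1 and Gjb6). Their processes end on blood vessels, where the water channel Aqp4 is concentrated, and they store glycogen, supply lactate and secrete lipid particles built on Apoe. Gfap, the intermediate filament of the cell, is known for its rise in reactive astrocytes. The tissue is a mixture of cells, so fewer astrocytes and less RNA per astrocyte cannot be told apart, and several of these genes are also used by other cells, such as Apoe and Clu by microglia and neurons and Glul and S100b by oligodendrocytes.

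The deposited values had been scaled between samples, with column totals of 29879143 to 30735443. The step between low values put the depth at about 25500000 to 43900000 reads per library. Hetero sample 3 was the deepest by this estimate (43900000) and WT sample 1 next (35700000). The estimate is rough and weakest for Hetero sample 3. There the best step fitted 15.3% of values under 60, against 23.3% to 27.9% in the other samples. Hetero sample 3 stood apart from the other Hetero samples by a median absolute log2 difference of 0.15 over the tested genes, against 0.095 between Hetero samples 1 and 2 and 0.11 to 0.13 among the WT samples. Cyfip2, the gene named in the genotype, read 31933, 30496 and 27503 in WT samples 1, 2 and 3 and 20959, 21237 and 18285 in Hetero samples 1, 2 and 3, so the groups did not overlap. Its log2 change was -0.57 ± 0.07 (SE), with an adjusted p of 0.31 in limma over all tested genes and p = 0.1 in the exact two-sided permutation test, the smallest that 3 against 3 samples allow.

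RefSeq start-site windows on GRCm38.p6, from 250 bases before to 50 after the annotated start, were available for 27 of the 31 genes in 38 windows. Those of 3 genes are shown: Slc1a3 and Slc25a18, the members whose groups did not overlap, and Gfap, the classical astrocyte marker. Each is written in the direction of the gene, 5′ to 3′, and capitals mark matches to a STAT-type motif (TTCNNNGAA) or a TATA-type motif (TATAAA, which reads TTTATA when matched on the other strand).
Slc1a3, chr15:8710758-8711057, minus strand: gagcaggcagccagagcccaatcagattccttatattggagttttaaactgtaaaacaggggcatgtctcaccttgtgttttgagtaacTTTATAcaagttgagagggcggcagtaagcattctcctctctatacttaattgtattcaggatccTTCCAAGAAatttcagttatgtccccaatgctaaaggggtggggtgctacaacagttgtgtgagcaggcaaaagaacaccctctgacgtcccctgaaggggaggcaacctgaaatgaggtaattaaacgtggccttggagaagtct
Slc25a18, chr6:120773518-120773817, plus strand: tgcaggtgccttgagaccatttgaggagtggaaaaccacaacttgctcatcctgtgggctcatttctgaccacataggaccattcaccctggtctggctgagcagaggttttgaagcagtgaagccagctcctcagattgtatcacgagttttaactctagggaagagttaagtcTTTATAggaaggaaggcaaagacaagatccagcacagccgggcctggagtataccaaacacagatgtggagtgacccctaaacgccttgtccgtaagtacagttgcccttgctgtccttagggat
Gfap, chr11:102897151-102897450, minus strand: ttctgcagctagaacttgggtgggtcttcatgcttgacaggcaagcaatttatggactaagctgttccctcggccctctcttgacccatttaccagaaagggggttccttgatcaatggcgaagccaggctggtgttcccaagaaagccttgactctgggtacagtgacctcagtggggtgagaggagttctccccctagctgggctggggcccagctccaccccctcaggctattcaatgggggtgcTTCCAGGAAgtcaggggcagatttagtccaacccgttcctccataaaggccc

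In the Slc1a3 window the STAT-type match begins at position -96 and the TATA-type match at -161, on the strand opposite to the gene, counting the start site as 1 and the base before it as -1. In the Slc25a18 window a TATA-type match on the opposite strand begins at -75. In the Gfap window a STAT-type match spans the RefSeq start site from -2. For both genes the RefSeq start lies inside the GENCODE span of the gene, not at its 5′ end. Both strands were searched for these and 2 more motifs, a nuclear factor I half-site (TTGGCA) and a SOX-type motif (ACAATG); none of the motifs contains another. The STAT-type motif was in 5 of 38 astrocyte windows (13.2%) and in 8.3% of all 32851 windows, and the TATA-type motif in 5 (13.2%) and 13.6%. For the half-site the counts were 4 (10.5%) against 14.1%, and for the SOX-type motif 3 (7.89%) against 12.6%. These are descriptions of letters in a window, with no test, and no match says nothing of binding elsewhere.

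In WT cortex the 31 genes covered a wide range of levels. Levels of different genes are compared as mean normalized count per kilobase of the principal transcript, which for a long gene depends on the annotated length. Apoe, the main lipid carrier of the brain, was highest at 20435 ± 1523 per kilobase (SD, n = 3), followed by Glul at 16940 ± 644, Slc1a2 at 11068 ± 634 and Clu, a secreted chaperone, at 10075 ± 486. Slc1a2 and Clu did not differ beyond their spread of 1 SD each, and Aldoc (9397 ± 983), the brain form of aldolase, overlapped Clu. Ndrg2 (8381 ± 1154), a cytoplasmic protein abundant in astrocytes, overlapped Aldoc in turn. The lowest were Slc14a1, a urea transporter, at 62.3 ± 11.7, Bmpr1b, a receptor for bone morphogenetic proteins, at 109 ± 5.06, and Sox9, a transcription factor of astrocyte fate, at 120 ± 13.2. When the length of all annotated exons was used, Glul ranked first and Apoe second, and Gja1 moved from rank 12 to rank 21, since its annotated exons extend to 10257 bases against 3182 in the principal transcript.

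**Figure D1:**
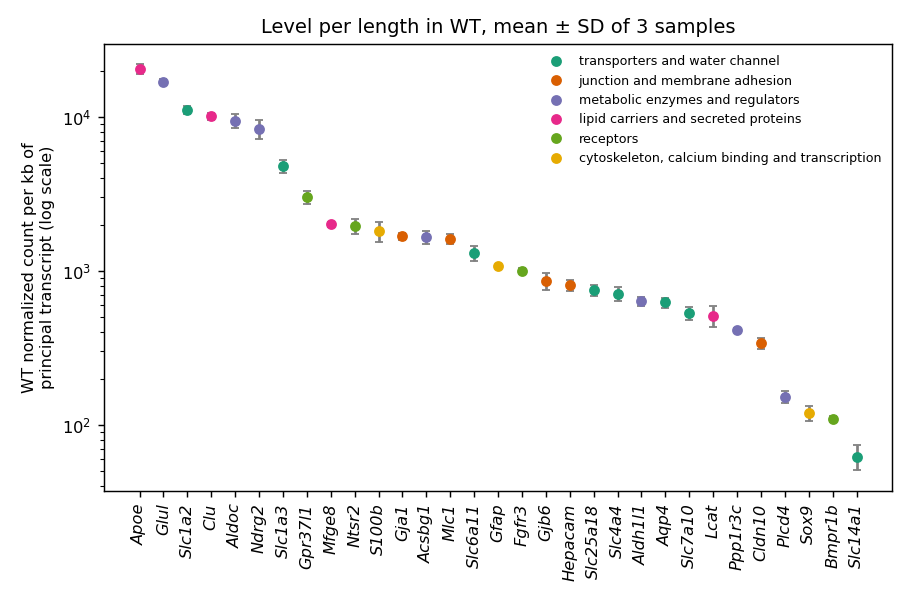
Mean normalized count per kilobase of principal transcript in WT (y axis, log scale) for the 31 astrocyte genes (x axis, in order of level), coloured by functional group; bars are the SD of 3 samples. The levels run from 20435 for Apoe to 62.3 for Slc14a1.

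The comparison of Hetero with WT asked whether astrocyte transcripts differ in the Cyfip2 mutant. At an adjusted p under 0.05 in limma, 0 of the 31 genes were called, as were 0 of the 14969 tested genes (0%). At an unadjusted p under 0.05 there were 3 of 31 (9.68%), where 3.83% of all tested genes passed. All 3 encode carriers of glutamate. Slc25a18 was the 1 on the higher side (1.66% of all tested genes), and Slc1a3 and Slc1a2 were the 2 on the lower side (2.17%). A count of 3 rests on few genes. It was not tested against the background, because the 31 genes were chosen with earlier results of these data known. The groups did not overlap for 2 of the 31 genes, Slc25a18 above and Slc1a3 below WT, a share of 6.45% beside 8.72% of all tested genes (4.4% above and 4.32% below).

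Fitted values were lower in Hetero for 21 of 31 genes, against 50.9% of all tested genes, with a median log2 change of -0.05 against a median near 0 (-0.002) over all tested genes. Both values moved with the samples included: without WT sample 2 the count was 13 of 31 and the median 0.008, and without Hetero sample 1 they were 16 of 31 and -0.009. The median was -0.106 without WT sample 1 and -0.027 without WT sample 3. The changes ran from -0.18 to 0.29. The 95% interval stayed inside 1.5-fold up or down for all 31 genes, and for 80.9% of all tested genes. The median standard error was 0.09 for these genes and 0.10 over all tested genes.

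**Figure D2:**
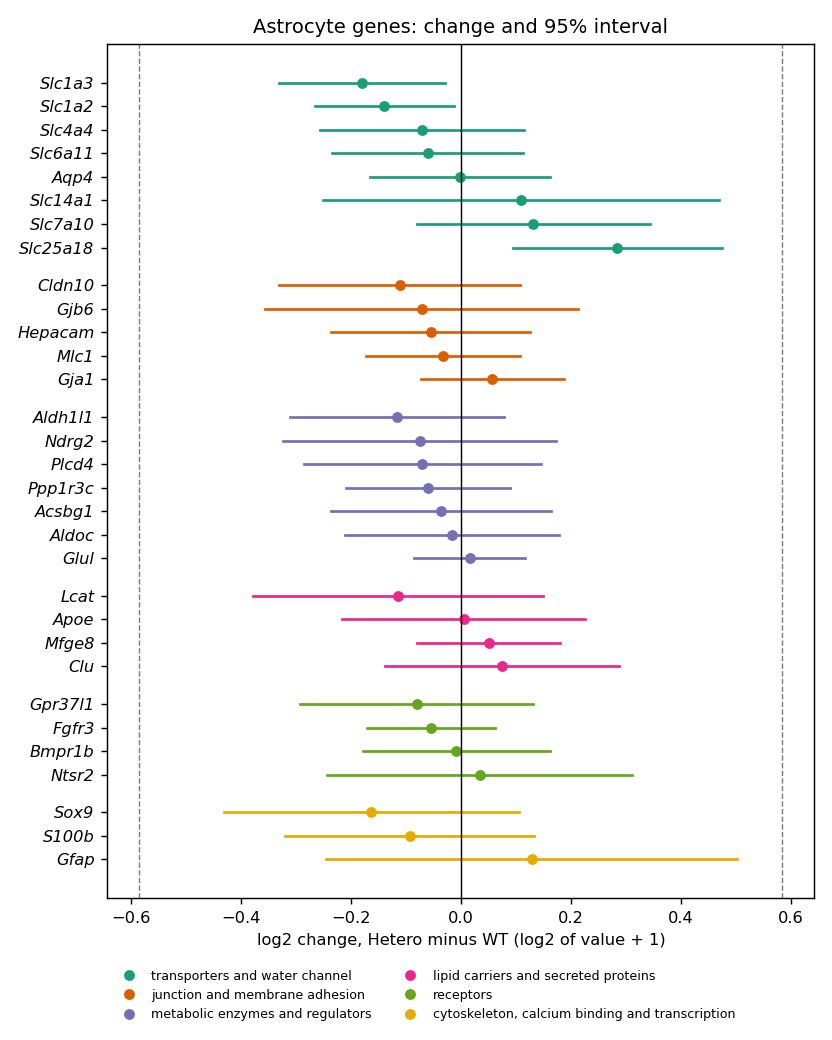
Log2 change between Hetero and WT on the log2(value + 1) scale (x axis) for each of the 31 genes (y axis), grouped by function; points are fitted changes, bars their 95% limma intervals, and dashed lines mark 1.5-fold. The interval leaves out 0 for Slc1a3, Slc1a2 and Slc25a18, and no interval reaches a dashed line.

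Among the plasma membrane glutamate transporters, Slc1a3 (GLAST; chromosome 15, 8634124 to 8710764, minus strand, start-site window printed above) read 17697, 20739 and 21145 in WT samples 1, 2 and 3, and 17412, 17562 and 17471 in Hetero samples 1, 2 and 3. The 3 Hetero values were almost equal and lay just under WT sample 1, while WT samples 2 and 3 were clearly above. Its log2 change was -0.18 ± 0.07 (SE), which is a ratio of 0.883 between Hetero and WT (95% interval 0.796 to 0.98), with an unadjusted limma p of 0.024, an adjusted p of 1 and an exact two-sided permutation p of 0.1. The coefficient of variation was 9.5% in WT and 0.4% in Hetero. With 1 sample left out, Slc1a3 kept an unadjusted p under 0.05 without WT sample 1 (log2 change -0.26) or Hetero sample 3 (-0.18), and not without any of the other four; the change was lower in Hetero each time.

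Slc1a2 (GLT-1; chromosome 2, 102658659 to 102790784, plus strand), the main glutamate transporter of the forebrain, read 120419, 129623 and 134954 in WT and 114476, 124145 and 110973 in Hetero. Hetero sample 2 lay above WT sample 1, so the groups overlapped. The log2 change was -0.14 ± 0.06 (SE), a ratio of 0.908 (95% interval 0.832 to 0.992), with an unadjusted limma p of 0.0349, an adjusted p of 1 and an exact two-sided permutation p of 0.2. Slc1a2 kept an unadjusted p under 0.05 without WT sample 1 (-0.18) or Hetero sample 2 (-0.19), and not without any of the other four.

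Slc25a18 (chromosome 6, 120773578 to 120794336, plus strand, start-site window printed above), which encodes a glutamate carrier of the mitochondrial inner membrane, went the other way. It read 1513, 1287 and 1488 in WT and 1687, 1634 and 1903 in Hetero, so every Hetero sample was above every WT sample. The log2 change was 0.29 ± 0.08 (SE), a ratio of 1.219 with a 95% interval of 1.068 to 1.391 (limma p = 0.00769 unadjusted, adjusted p = 1; exact permutation p = 0.1). Slc25a18 shares 32 annotated exon bases with Atp6v1e1 on the opposite strand, a proton pump subunit, which read 8542, 8568 and 8985 in WT and 8610, 8702 and 9141 in Hetero (log2 change 0.02 ± 0.05 SE); no source used here says whether the counting used strand.

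**Figure D3:**
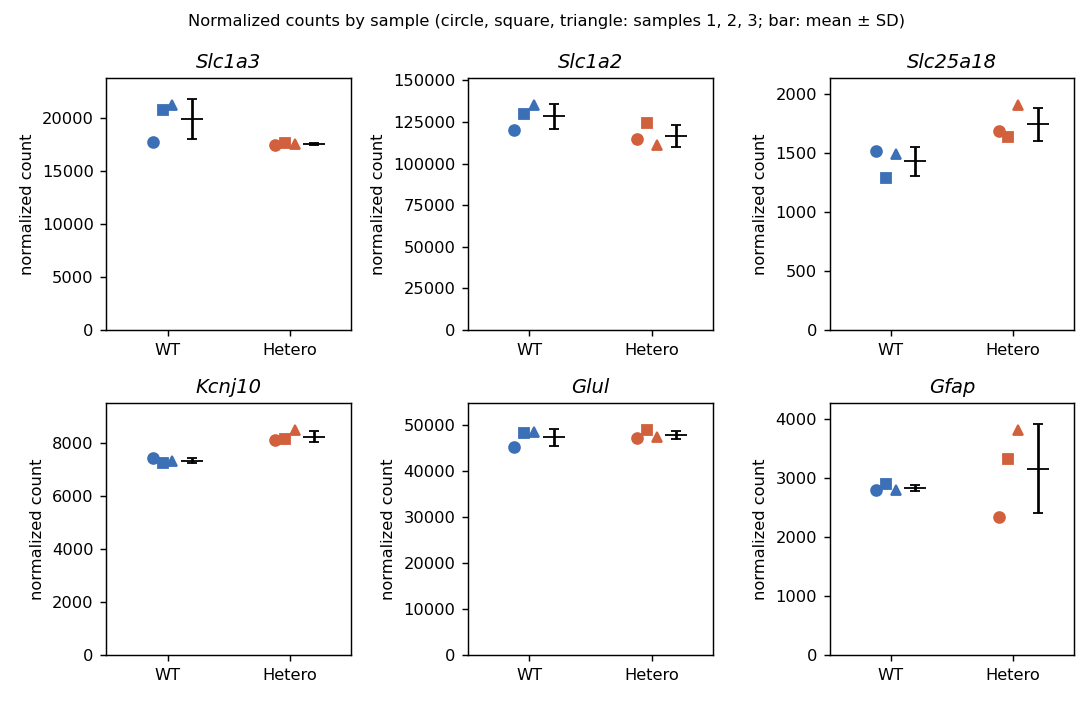
Normalized counts (y axis, from 0) of Slc1a3, Slc1a2, Slc25a18, Kcnj10, Glul and Gfap in WT and Hetero; each symbol is a sample and the bar beside them the mean ± SD of 3. Slc25a18 and Kcnj10 are higher in all 3 Hetero samples and Slc1a3 is lower, Slc1a2 and Glul overlap, and Gfap spreads from 2342 to 3811 within Hetero.

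The balance of the membrane glutamate transporters was compared within each library, which needs no scaling between libraries. The ratio of Slc1a2 to Slc1a3 normalized counts was 6.8, 6.25 and 6.38 in WT and 6.57, 7.07 and 6.35 in Hetero. The means were 6.48 ± 0.29 and 6.67 ± 0.37 (SD, n = 3 each), and the ranges overlapped (exact two-sided permutation p = 0.6, with 0.1 the smallest possible). Per kilobase of principal transcript the mean ratio was 2.33 in WT and 2.39 in Hetero.

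The other 5 genes of the transporter group did not pass an unadjusted p of 0.05. Slc7a10, the transporter of small neutral amino acids such as serine, read 926, 1079 and 1118 in WT and 1175, 1025 and 1222 in Hetero (log2 change 0.13 ± 0.09 SE). It shares 377 annotated exon bases with Lrp3 on the opposite strand, whose log2 change was 0.04 ± 0.06 (SE). Slc6a11, the GABA transporter GAT-3, lay between 4775 and 5932 in WT and between 4973 and 5289 in Hetero (-0.06 ± 0.08). Slc4a4, the sodium bicarbonate cotransporter, ranged from 5032 to 6161 and from 4903 to 5605 (-0.07 ± 0.08). Aqp4, the endfoot water channel, read 3358, 3208 and 2903 in WT and 2994, 3398 and 3061 in Hetero; the log2 change was -0.002 and the ratio interval 0.891 to 1.119. Slc14a1, the least abundant member, read 244, 261 and 180 in WT and 272, 253 and 210 in Hetero, and its ratio interval was wide (0.841 to 1.385).

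The junction and adhesion genes gave no difference beyond the spread. Gja1, which encodes connexin 43 (chromosome 10, 56377330 to 56402513, plus strand), read 5068, 5359 and 5603 in WT and 5298, 5659 and 5716 in Hetero (log2 change 0.06 ± 0.06 SE). Gjb6, connexin 30 (chromosome 14, 57123303 to 57133611, minus strand), read 1553, 2022 and 1851 in WT and 1608, 2029 and 1537 in Hetero (-0.07 ± 0.13 SE). Connexin 43 thus varied little and connexin 30 varied in both groups, with coefficients of variation of 5.0% and 4.1% for Gja1 and of 13.1% and 15.4% for Gjb6 in WT and Hetero. The ratio of Gja1 to Gjb6 was 3.26, 2.65 and 3.03 in WT and 3.29, 2.79 and 3.72 in Hetero (exact permutation p = 0.4). Cldn10, a claudin, had the smallest p of the group (0.284), with 661, 778 and 725 in WT and 592, 692 and 721 in Hetero. Mlc1 and Hepacam, membrane partners at astrocyte contacts, differed by -0.03 ± 0.06 (SE) and -0.06 ± 0.08 (SE), and the Mlc1 values of the Hetero samples (4343 to 4440) all lay inside the WT range (4124 to 4725).

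Of the 7 metabolic genes, 6 had a lower fitted value (50.9% of all tested genes did), and 0 passed an unadjusted p of 0.05 (3.83% of all tested genes). Glul (chromosome 1, 153899944 to 153909723, plus strand) had the narrowest interval of the 31 genes, a ratio of 1.011 with a 95% interval of 0.943 to 1.083. Its values were 45228, 48183 and 48479 in WT and 47128, 48828 and 47415 in Hetero, which overlap. Aldh1l1, a folate enzyme used as a pan-astrocyte marker, had the smallest p of the group (0.213) and read 2460, 2824 and 2674 in WT and 2213, 2396 and 2753 in Hetero. Without Hetero sample 3 its change was -0.20. Aldoc (log2 change -0.02), Acsbg1, a fatty acyl-CoA synthetase (-0.04), Ppp1r3c, a glycogen-targeting phosphatase subunit (-0.06), Plcd4, a phospholipase C (-0.07), and Ndrg2 (-0.07) had overlapping groups. Ppp1r3c was the steadiest in WT, at 1109 to 1151, and Ndrg2 the most variable of the 7 there, at 14844 to 19302.

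Of the 4 lipid carriers and secreted proteins, Apoe and Clu varied more within Hetero than within WT. Apoe read 26769, 28513 and 31035 in WT and 25517, 28075 and 33429 in Hetero, and Clu read 17322, 18311 and 19077 in WT and 16824, 18846 and 22285 in Hetero. For both, Hetero sample 1 was the lowest and Hetero sample 3 the highest of all 6 samples, and the log2 changes were 0.01 ± 0.10 (SE) and 0.07 ± 0.09 (SE). The coefficients of variation in WT and Hetero were 7.5% and 13.9% for Apoe and 4.8% and 14.3% for Clu, against 15.5% and 8.8% for Lcat and 4.3% and 4.4% for Mfge8. Lcat, a cholesterol-esterifying enzyme of lipoprotein particles, had the smallest p of the group (0.357) and read 581, 793 and 684 in WT and 601, 596 and 694 in Hetero. Mfge8, a secreted bridging protein in phagocytosis, lay between 4097 and 4459 in WT and between 4291 and 4638 in Hetero.

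The receptor genes did not separate the groups. Fgfr3, a fibroblast growth factor receptor, had the smallest p (0.326) and read 4146, 4440 and 4200 in WT and 4085, 4154 and 4075 in Hetero. Bmpr1b had a ratio of 0.995 with an interval of 0.884 to 1.119. Ntsr2, a neurotensin receptor of astrocytes, read 2583, 3231 and 3113 in WT and 2637, 2953 and 3579 in Hetero, and Gpr37l1, an orphan-type receptor of glia, read 6036, 7096 and 7309 in WT and 5978, 6093 and 7271 in Hetero. In both, sample 1 was the lowest of its group in WT and in Hetero.

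Gfap (chromosome 11, 102887336 to 102900912, minus strand, RefSeq start-site window inside this span printed above) read 2807, 2900 and 2795 in WT and 2342, 3331 and 3811 in Hetero. The WT samples were within a coefficient of variation of 2.0%, while the Hetero samples spread over 23.7%, the largest of the 31 genes in either group, with Hetero sample 1 below and Hetero samples 2 and 3 above every WT sample. The log2 change was 0.13 ± 0.16 (SE; adjusted p of 1 in limma, exact permutation p = 0.7); it was 0.33 without Hetero sample 1 and -0.02 without Hetero sample 3. Sox9 had the smallest p of this group (0.204), with 463, 466 and 560 in WT and 458, 381 and 494 in Hetero (log2 change -0.16 ± 0.12 SE). S100b, a calcium-binding protein, lay between 2278 and 3064 in WT and between 2364 and 2637 in Hetero.

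The members varied together within groups. WT sample 1 was the lowest WT sample for 25 of the 31 genes, where it was the lowest for 34.5% of all tested genes, and Hetero sample 3 was the highest Hetero sample for 20 of 31, against 38.7%. The level of the 31 genes, the average distance of their log2 values from each gene's own 6-sample mean, was -0.09, 0.08 and 0.04 in WT samples 1, 2 and 3 and -0.08, -0.01 and 0.06 in Hetero samples 1, 2 and 3. The spread within a group (SD 0.08) was larger than the difference between the groups (-0.02). Hetero sample 3 exceeded the mean of Hetero samples 1 and 2 by a median log2 of 0.14 over the 31 genes, most for Gfap (0.45), Ntsr2 (0.36), Clu and Apoe (both 0.32), and was lower for Slc14a1 (-0.32), Gjb6 (-0.23), Slc4a4 (-0.19) and Slc1a2 (-0.10). Over all tested genes the same median was near 0 (0.003). Across the 31 genes this difference had a Spearman rho of -0.52 with the length of the principal transcript, and across 14960 tested genes one of -0.37; the points share 3 libraries, genes are not independent replicates, and the part of length or depth in the result was not tested.

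**Figure D4:**
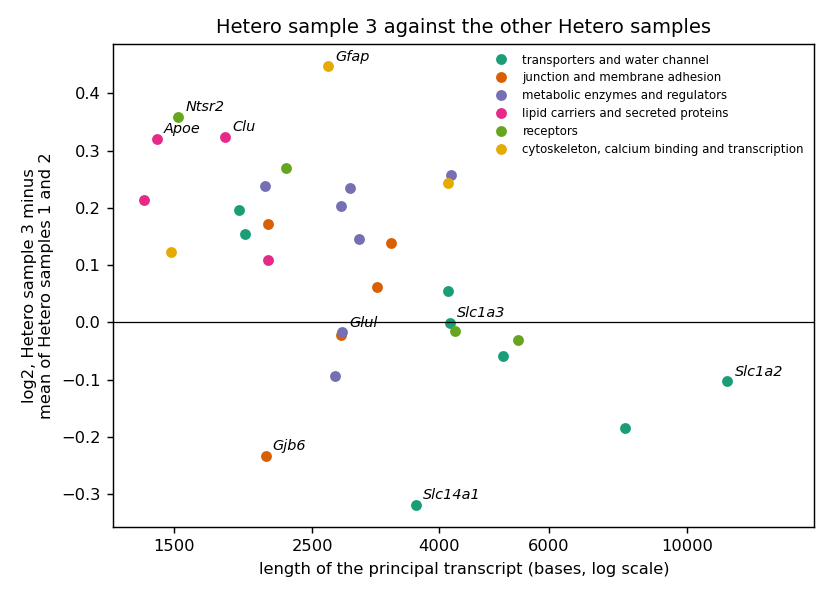
Log2 value of Hetero sample 3 minus the mean of Hetero samples 1 and 2 (y axis) against the length of the principal transcript (x axis, log scale) for the 31 genes, coloured by functional group. Gfap is highest at 0.45, followed by Ntsr2, Clu and Apoe above 0.3, while the shortest, Lcat, lies at 0.21, the longest, Slc1a2, at -0.10, and Slc14a1 is lowest at -0.32.

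Levels of the functional groups followed the same libraries in WT and only in part in Hetero. WT sample 1 was the lowest WT sample in all 6 groups, from -0.06 (transporters) to -0.12 (junction genes), and Hetero sample 1 was the lowest Hetero sample in 5, the exception being the transporters (0.02). Hetero sample 3 was the highest Hetero sample except in 2 groups. It was the lowest for the transporters (-0.02), and for the junction genes (-0.006) it lay under Hetero sample 2 (0.05). The median log2 change was -0.03 for the 8 transporters, -0.06 for the 5 junction genes, -0.06 for the 7 metabolic genes, 0.03 for the 4 lipid and secreted genes, -0.03 for the 4 receptors and -0.09 for Gfap, S100b and Sox9. With 1 sample left out these medians ran from -0.06 to 0.01, -0.13 to -0.004, -0.11 to 0.002, -0.07 to 0.08, -0.07 to 0 and -0.21 to 0.009 in the same order. The junction median stayed under 0 in every such fit, the receptor median reached 0 within rounding, and those of the other groups crossed 0. Gja1, a junction gene, was higher in Hetero in each of these fits (0.02 to 0.092).

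Markers of the other cells of the tissue were measured beside the astrocyte genes. These lists too were chosen with earlier results of these data known, so their shares were not tested against all tested genes. The level of 17 mature oligodendrocyte genes was -0.25, 0.05 and 0.29 in WT samples 1, 2 and 3. In Hetero samples 1, 2 and 3 it was -0.21, -0.03 and 0.14, so it was also lowest in sample 1 of each group. The same held for the precursor, microglia, and ependymal and choroid plexus genes. It did not hold for the endothelial and pericyte, fibroblast or neuron genes. Lower fitted values, which 50.9% of all tested genes had, were found for all 12 tested oligodendrocyte precursor genes (median -0.22; Gpr17 at -0.25 and Susd5 at -0.37), for 19 of 20 microglia genes (median -0.11; Fcer1g at -0.32 and Ctss at -0.19) and for 1 of 14 meningeal fibroblast genes (median 0.22; Slc47a1 at 1.08 and Col1a1 at 0.33). Of the 12 precursor genes 5 were lower at an unadjusted p under 0.05 (41.7%, beside 2.17% of all tested genes). The groups did not overlap for 5 of the 12, beside 8.72% of all tested genes. The level of the precursor genes was -0.003, 0.07 and 0.25 in WT and -0.24, -0.11 and 0.03 in Hetero, which overlap. Of the 20 microglia genes 2 were lower at an unadjusted p under 0.05 (10%, beside 2.17% of all tested genes). The level of the microglia genes was 0.007, 0.07 and 0.12 in WT and -0.13, -0.07 and 0.001 in Hetero. These levels did not overlap, though the highest in Hetero lay close to the lowest in WT, and the difference was not tested. The level of the fibroblast genes lay between -0.40 and 0.29 in WT and between -0.11 and 0.34 in Hetero. Excitatory neuron genes had a median of -0.01 (Camk2a at -0.11, Nptx1 at 0.17), inhibitory neuron genes of 0.06 (Pvalb at 0.28, Gad1 at 0.10), and endothelial and pericyte genes of 0.02 (Rgs5 at 0.12, Kcnj8 at 0.28, which ran from 0.11 to 0.41 with 1 sample left out). Of 12 ependymal and choroid plexus genes 7 were tested, with a median of 0.13 (Kl at 0.78, Ttr at 0.91) and levels of -0.21 to -0.10 in WT and -0.13 to 0.38 in Hetero. Ttr, the transthyretin of the choroid plexus, was at 0.25 without WT sample 1 and at 1.44 without WT sample 2, and Slc47a1 ran from 0.71 to 1.55 with 1 sample left out. In these lists 0 genes had an adjusted p under 0.05, and the part of cell composition in the astrocyte values was not tested.

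**Figure D5:**
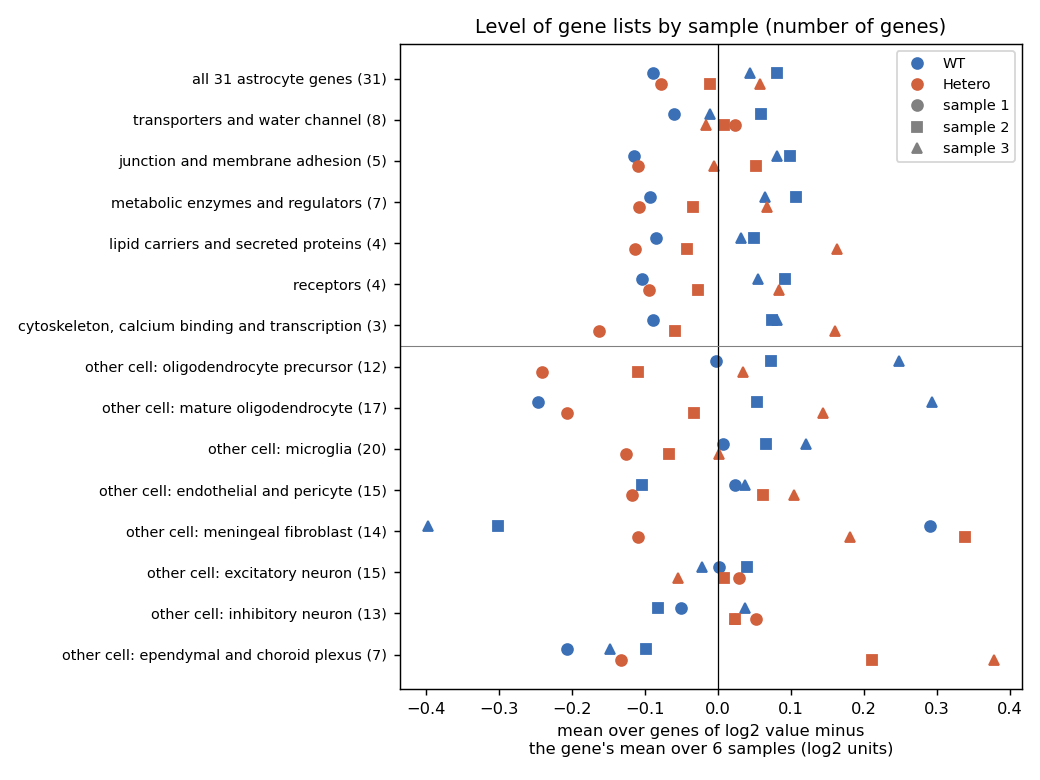
Level of each gene list by sample (x axis, average log2 distance of its genes from their own 6-sample means), with the astrocyte groups above the line and markers of other cells under it; symbols are samples and colours genotypes. WT sample 1 and Hetero sample 1 lie to the left for the 31 astrocyte genes (-0.09 and -0.08) and for mature oligodendrocyte genes (-0.25 and -0.21). They are also the lowest of their groups for precursor, microglia, and ependymal and choroid plexus genes.

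Further astrocyte genes outside the 31 were examined in lists, some sharing genes, with 0 called at an adjusted p under 0.05. The lists were likewise chosen with earlier results of these data known, and none was tested. Their counts stand beside the shares of all tested genes: 3.83% passed an unadjusted p under 0.05 (1.66% higher, 2.17% lower), 50.9% had a lower fitted value, and 8.72% had groups that did not overlap. Of 11 genes for potassium, sodium and acid-base handling, 1 was higher at an unadjusted p under 0.05 (9.09%, beside 1.66% of all tested genes), and 6 had a lower fitted value. This 1 was Kcnj10, the potassium channel Kir4.1 of astrocyte processes, which read 7440, 7245 and 7320 in WT and 8106, 8156 and 8488 in Hetero. Every Hetero sample was above every WT sample, as for 4.4% of all tested genes, by a log2 change of 0.17 ± 0.05 (SE; adjusted p of 1 in limma, exact permutation p = 0.1), and Kcnk1, a potassium leak channel, differed by 0.08. Of 14 genes of the glutamate-glutamine cycle and amino acid transport, 3 had a lower fitted value (beside 50.9%) and 1 passed (7.14%, beside 3.83%), Slc6a9, the glycine transporter GlyT1, which read 874, 971 and 785 in WT and 1005, 1063 and 1017 in Hetero (0.24 ± 0.09 SE). Slc38a3, a glutamine exporter of astrocytes, read 2899, 3638 and 3180 in WT and 2869, 2821 and 2911 in Hetero (-0.17 ± 0.08 SE, exact permutation p = 0.2; -0.25 to -0.08 with 1 sample left out).

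Of 12 lactate and glycogen genes 1 was lower at an unadjusted p under 0.05 (8.33%, beside 2.17% of all tested genes), Gbe1, the glycogen branching enzyme, at 355, 377 and 369 in WT and 301, 332 and 290 in Hetero (log2 change -0.26 ± 0.09 SE). Ldha, a lactate dehydrogenase subunit, differed by -0.07. In the 11 genes of the endfoot and dystrophin complex 0 passed, with Utrn at -0.06 and Dag1, the gene of dystroglycan, at 0.05. Of 15 synapse-regulating secreted and phagocytic genes, 9 had a lower fitted value (beside 50.9%) and the median log2 change was -0.05. At an unadjusted p under 0.05, 3 of the 15 were higher and 0 lower (beside 1.66% and 2.17% of all tested genes). These were thrombospondin genes, first Thbs1 (118, 71.0 and 88.4 in WT; 135, 160 and 134 in Hetero) and Thbs4 (24.3, 22.4 and 39.0 in WT; 37.3, 81.4 and 109 in Hetero). The third, named after its values were seen, was Thbs2 (log2 change 0.30 ± 0.10 SE). Thbs1 and Thbs2 did not overlap between the groups and Thbs4 did, and cells other than astrocytes make them too. Within WT, Thbs1 was highest in sample 1, as was the level of the fibroblast genes (0.29); their part in the thrombospondin values was not tested.

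Of 22 astrocyte transcription factor genes 15 had a lower fitted value (beside 50.9%), and 1 passed (4.55%, near the 3.83% of all tested genes). This was Rorb (0.42), which is also a marker of layer 4 neurons, and Gli2, an effector of hedgehog signalling, differed by -0.19. Reactive astrocyte genes gave 32 tested genes of 39, with 0 higher and 2 lower at an unadjusted p under 0.05 (6.25% against 3.83% of all tested genes): Osmr, the oncostatin M receptor, at 207, 224 and 191 in WT and 155, 178 and 157 in Hetero, and Ptgs2, a prostaglandin synthase that neurons also express, at 415, 367 and 406 in WT and 362, 313 and 283 in Hetero. The level of the reactive list was 0.11, -0.01 and -0.01 in WT and -0.19, 0.02 and 0.08 in Hetero. Genes of immature astrocytes and radial glia had 8 of 13 lower fitted values and 1 passing (7.69%), with Slc1a3, which this list shares with the 31, first and Ptprz1, a receptor phosphatase, at -0.14. Of 7 tested genes of astrocytes outside the telencephalon, 2 were lower in the fit and 1 passed (14.3%), with Slc6a9 first and Agt, angiotensinogen, at 0.32. Pial and fibrous astrocyte genes, 10 with Gja1 among them, had 1 lower and 1 higher at an unadjusted p under 0.05, Fxyd6 at -0.28 and Igfbp5 at 0.36.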

How the data were processed

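Messenger RNA of prefrontal cortex was sequenced in 6 samples, 3 WT and 3 Hetero, with a stranded mRNA kit (per the labels' protocols); titles gave the groups. The deposited table holds a normalized count per gene and sample, treated as a signal because its values are not whole; how the authors scaled, annotated or filtered it is not stated in these sources. DESeq2 1.19.11, Salmon 0.11.2, R 3.6.0 and the build GRCm38 appear in the submitters' processing notes. Taking the best step per sample, 15.3% to 27.9% of values under 60 were whole multiples of it, to within 0.02 of that step, so whole reads could not be recovered and no count test was run; estimated reads are column totals over that step.

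Of the identifiers 17875 matched GENCODE M21 and 14 did not. For the 14969 genes averaging 10 or more, log2(value + 1) entered limma 3.58.1 under R 4.3.3 (eBayes with trend and robust fitting, two-sided, Benjamini-Hochberg over all tested genes, threshold 0.05); log2 changes are on that scale and understate changes of low genes. Ratios were tested by exact permutation over 20 assignments. Length is that of the longest APPRIS principal transcript. The fit was tested on simulated data. The members and lists were chosen with earlier results of these data known, so no list was tested. Every member is named; full values go to the 3 smallest p in each direction, the smallest in each functional group and 7 members fixed by name, and 2 genes of each other list have the smallest p of that list. The alternatives were plain eBayes (neither trend nor robust), centring on the median, rescaling on the upper quartile, a minimum mean of 50 or none, a pseudocount of 0.5 or 8, the replicate number as a block, a threshold of 0.1, and each sample left out in turn.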

Additional observations from a re-analysis of the deposited data

How the results depend on the processing

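No astrocyte gene had an adjusted p under 0.05 in any of the 14 refits or at a threshold of 0.1, and 15 of the 31 kept their direction in all 14. Slc25a18 kept an unadjusted p under 0.05 in each (log2 change 0.21 to 0.33); Slc1a3 stayed between -0.26 and -0.13 and Slc1a2 between -0.19 and -0.10. The number of astrocyte genes at an unadjusted p under 0.05 was 1 without trend and robust fitting, and between 1 and 5 when 1 sample was left out: 5 without WT sample 1 (Ndrg2 and S100b added), and 1 without WT sample 2 or WT sample 3. The number with a lower fitted value lay between 13 and 23 when 1 sample was left out. Over all tested genes, the counts of higher and of lower genes each lay between 0 and 1 when 1 sample was left out.

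The direction of 16 astrocyte genes turned in at least 1 fit, among them Gfap, Slc14a1 and S100b. Over the fits that left out 1 sample the log2 change ranged from -0.146 to 0.01 for Slc6a11, -0.052 to 0.216 for Slc14a1, -0.061 to 0.044 for Aqp4, -0.194 to 0.014 for Gjb6, -0.095 to 0.003 for Mlc1, -0.129 to 0.002 for Hepacam, -0.016 to 0.034 for Glul, -0.106 to 0.029 for Aldoc, -0.12 to 0.012 for Acsbg1, -0.118 to 0.002 for Plcd4, -0.102 to 0.093 for Apoe, -0.033 to 0.169 for Clu, -0.086 to 0.134 for Ntsr2, -0.043 to 0.024 for Bmpr1b, -0.021 to 0.33 for Gfap and -0.205 to 0.009 for S100b. Aqp4 also turned with upper-quartile rescaling (0.005). The log2 difference of the Slc1a2 to Slc1a3 ratio ranged from -0.003 to 0.076 when 1 sample was left out. The cause of these turns was not tested.

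With the replicate number as a block, 1 gene was higher (Jun) and 1 lower (Cyfip2, adjusted p = 0.0016 in limma) and 0 astrocyte genes were called. The samples share only a number: same-numbered WT and Hetero samples had correlations of deviations of -0.005, 0.004 and 0.227, and the block moved no astrocyte call. Groups of 3 samples limit precision, and counting error of the scaled values cannot be read from the table.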
